A study of Homo sapiens with 9 samples.

Results

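Interleukin 7 receptor and thymic stromal lymphopoietin signalling was examined through 9 genes in HuCCT1 cells. HuCCT1 is an established line grown from a human bile duct cancer. The genes were the receptor chains IL7R, CRLF2 and IL2RG, the ligands IL7 and TSLP, the kinases JAK1 and JAK3, and the transcription factors STAT5A and STAT5B. They were found by their gene symbol in the annotation of the array platform, which gave 21 of 54613 probe sets and 9 of 19775 genes. They were chosen with earlier results of these arrays known, IL7R for its high difference, so the members' values are given as a description and were not tested. Transcript levels were measured on 9 single-colour arrays. Of these, 5 carried RNA from HuCCT1 cells transfected with a vector for YAPS127A, and 4 carried RNA from cells transfected with an empty vector. YAPS127A is a constitutively active form of the transcriptional co-activator YAP1. The study asks how its overexpression alters the transcriptome of these cells. Both groups share the cell line, the medium and a transfected vector. Whether the cells were clones or pools, and whether the numbered samples came from separate cultures, is not stated in the sources used here. The p-values below thus reflect the spread among these arrays alone, and that spread may be technical. The number of arrays limits the precision.

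IL7R encodes the alpha chain that both cytokines use. It pairs with the common gamma chain, encoded by IL2RG, to bind interleukin 7, and with the product of CRLF2 to bind TSLP. JAK1 binds the IL7R chain and JAK3 the common gamma chain, and the kinases phosphorylate STAT5A and STAT5B, which then enter the nucleus and switch on target genes. The complete interleukin 7 receptor is best known from developing and mature lymphocytes, whereas TSLP is an alarm cytokine made by epithelial cells and interleukin 7 is made by stromal and epithelial cells.

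The receptor chain IL7R was the member with the highest difference, and its partner chains and ligands differed in both directions. IL7R was 13.9-fold higher in YAPS127A cells and IL2RG was 1.97-fold higher from a very low signal. The TSLP receptor partner CRLF2 was 3.85-fold lower and the ligand IL7 4.80-fold lower. TSLP gave no signal above control probe sets in either group. Among the signal transducers, STAT5A and STAT5B were 1.55-fold and 1.44-fold lower, while the brightest probe sets of JAK1 and JAK3 overlapped between the groups. By brightest probe set, 6 of 9 members did not overlap between the groups, 2 higher and 4 lower, where 28.3% of all genes did not overlap and 28.7% passed the limma test (adjusted p under 0.05). Over all member probe sets it was 10 of 21, where 22.3% of all probe sets did not overlap and 23.9% passed. Since the members were chosen from this same comparison, nothing is read from these shares.

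**Figure D1:**
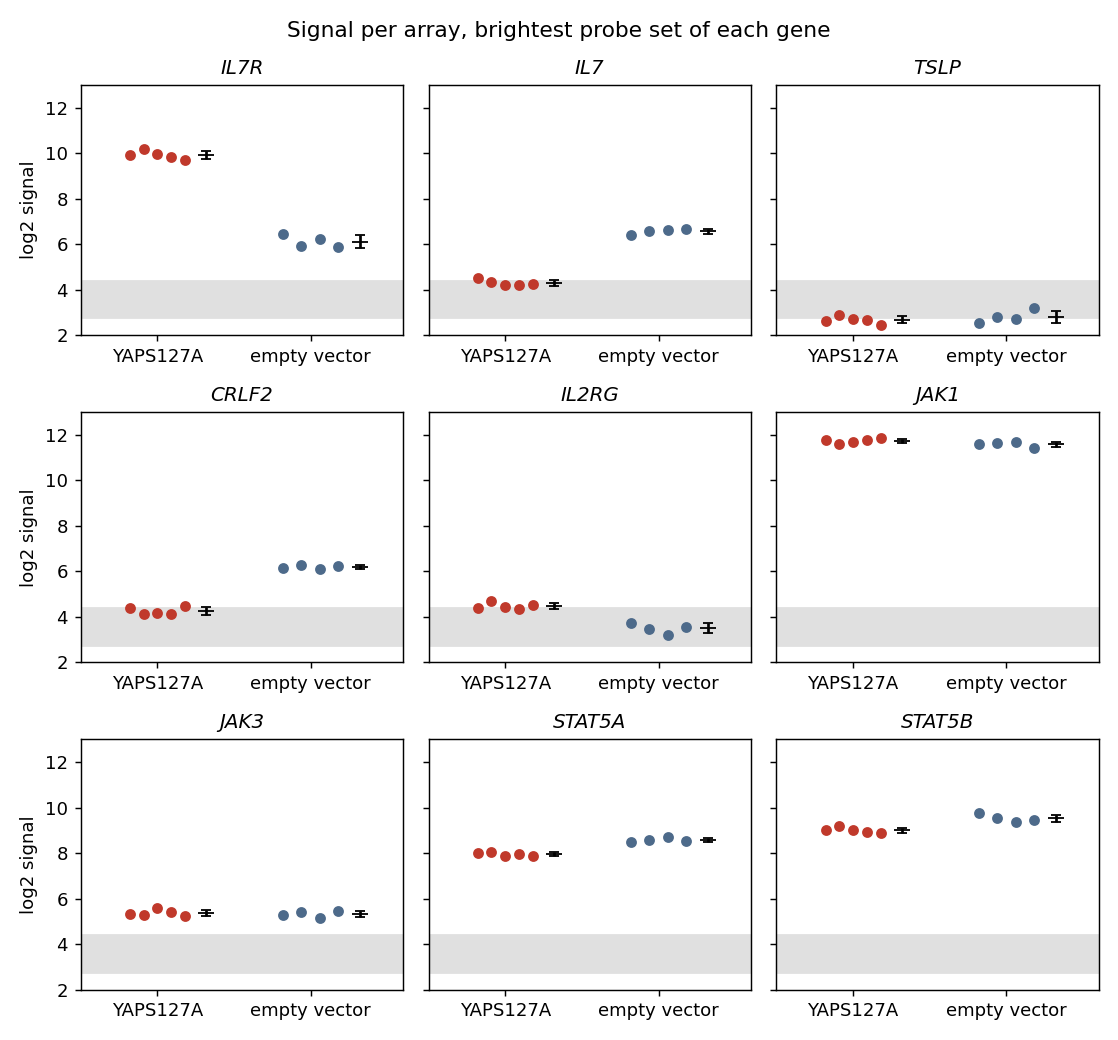
Log2 signal of each array (points) for the brightest probe set of each of the 9 genes, YAPS127A left and empty vector right, with the group mean and SD beside the points. The grey band is the range of the 3 TrpnX control probe sets (2.74 to 4.38): IL7R in YAPS127A cells stands far above it, IL7 and CRLF2 lie at its upper edge in YAPS127A cells only, and TSLP lies within or below it on every array.

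Proximal promoter sequences are shown for IL7R, IL2RG and JAK1. IL7R and IL2RG are the 2 genes whose brightest probe set was higher with YAPS127A without overlap between the groups. JAK1 has the only match to the core motif of TEAD, the DNA-binding partner of YAP1, among the members found. RefSeq promoters (GRCh38.p14) were matched for 7 of 9 members, in 13 windows of 250 bases before an annotated start, since some genes have several starts. Letters in capitals are matches, on either strand, to GGAATG (TEAD), TTCNNNGAA (STAT), TGANTCA (AP-1), CAGGAA (ETS factors), TGTGGT (RUNX factors) or AGATAA (factors of the GATA family). The last 3 were added after the IL7R promoter had been read. The IL7R window lies at chr5:35856641-35856890 on the plus strand, the IL2RG window at chrX:71111578-71111827 and the JAK1 window at chr1:64966937-64967186, both on the minus strand.
IL7R: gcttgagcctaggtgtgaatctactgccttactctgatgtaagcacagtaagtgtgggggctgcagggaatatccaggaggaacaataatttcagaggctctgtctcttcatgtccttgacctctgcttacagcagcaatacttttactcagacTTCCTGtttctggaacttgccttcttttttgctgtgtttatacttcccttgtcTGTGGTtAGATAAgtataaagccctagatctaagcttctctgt
IL2RG: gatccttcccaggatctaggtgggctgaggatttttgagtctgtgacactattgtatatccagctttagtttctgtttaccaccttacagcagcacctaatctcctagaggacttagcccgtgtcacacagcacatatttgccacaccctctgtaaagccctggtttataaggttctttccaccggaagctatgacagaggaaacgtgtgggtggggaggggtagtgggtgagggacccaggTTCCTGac
JAK1: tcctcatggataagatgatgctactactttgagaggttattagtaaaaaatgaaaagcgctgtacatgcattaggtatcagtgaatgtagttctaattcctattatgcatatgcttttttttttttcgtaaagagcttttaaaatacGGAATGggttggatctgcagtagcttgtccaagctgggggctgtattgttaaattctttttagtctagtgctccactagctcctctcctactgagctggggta
The capitals in the IL7R window mark an ETS match 96 to 91 bases before the start, a RUNX match 43 to 38 bases before it and a GATA match 36 to 31 bases before it. In the IL2RG window they mark an ETS match 8 to 3 bases before the start, and in the JAK1 window a TEAD match 103 to 98 bases before one of its 3 annotated starts. Of all 35116 promoters, 11.9% hold the TEAD motif in a window of this length, 6.57% the STAT motif, 6.57% the AP-1 motif, 24.1% the ETS motif, 11% the RUNX motif and 9.17% the GATA motif. Of the members' 13 windows, 1 held the TEAD motif, 6 the ETS motif, 0 the STAT motif and 0 the AP-1 motif. The RUNX and GATA motifs were matched in the IL7R window alone. Some windows of STAT5A overlap each other, and the counts were not tested against the shares. The matches are of letters and not measured binding sites, and a window without a match says nothing of more distant elements.

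The 2 IL7R probe sets were both higher in YAPS127A cells. The brighter one, 226218_at, had log2 signals of 9.91, 10.19, 9.95, 9.82 and 9.72 in YAPS127A cells and of 6.47, 5.92, 6.22 and 5.87 in empty vector cells. Every YAPS127A array lay above every empty vector array, with a gap wider than the range within either group. The YAPS127A mean was 9.92 ± 0.18 (SD, n = 5) and the empty vector mean was 6.12 ± 0.28 (SD, n = 4), a log2 difference of +3.80 (SE 0.13). Only 8 of the 54613 probe sets had a higher difference, which places it at rank 9.

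The other IL7R probe set, 205798_at, had log2 signals of 6.0, 6.0, 6.12, 6.58 and 6.62 in YAPS127A cells and of 4.34, 4.25, 3.96 and 4.65 in empty vector cells. The groups again did not overlap, and the log2 difference was +1.96 (SE 0.17), or 3.90-fold. The 2 probe sets therefore give different sizes for the same gene, and their mean differed by 2.88. With the empty vector, 205798_at exceeded the highest TrpnX signal on 1 of 4 arrays, whereas 226218_at did so on all 4. TrpnX is a bacterial control sequence, and its 3 probe sets had log2 signals of 2.74 to 4.38 on these arrays. A fold change from a signal this low depends on the background. Where in the transcript each probe set lies is not stated in the sources used here.

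IL2RG, the common gamma chain shared by several interleukin receptors, was low on every array. Its log2 signals were 4.38, 4.69, 4.45, 4.37 and 4.53 in YAPS127A cells, against 3.74, 3.49, 3.22 and 3.58 in empty vector cells. The groups did not overlap, with a log2 difference of +0.98 (SE 0.10). The signal exceeded the highest TrpnX value on 4 of 5 YAPS127A arrays and on none of the 4 empty vector arrays. The higher value thus starts within the range of the control probe sets and ends at its upper edge.

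CRLF2, the chain that joins IL7R in the TSLP receptor, was lower in YAPS127A cells, the opposite direction to IL7R. Its log2 signals were 4.40, 4.12, 4.18, 4.11 and 4.47 in YAPS127A cells, against 6.14, 6.30, 6.10 and 6.26 in empty vector cells. The groups did not overlap and the log2 difference was -1.95 (SE 0.09), at rank 142 from the lowest of all probe sets. Only 2 of 5 YAPS127A arrays exceeded the highest TrpnX value, so the size of the difference depends on the background. CRLF2 lies in the region that the X and Y chromosomes share, and its single probe set carries the suffix s, which the platform gives to probe sets that can read more than one transcript.

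The ligand IL7 was also lower. Its log2 signals were 4.53, 4.33, 4.22, 4.19 and 4.24 in YAPS127A cells, against 6.41, 6.59, 6.61 and 6.65 in empty vector cells. The YAPS127A mean was 4.30 ± 0.14 (SD, n = 5) and the empty vector mean was 6.57 ± 0.10 (SD, n = 4), a log2 difference of -2.26 (SE 0.08) at rank 105 from the lowest. The groups did not overlap, and 1 of 5 YAPS127A arrays exceeded the highest TrpnX value, compared with all 4 empty vector arrays.

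TSLP, the second ligand, had log2 signals of 2.65, 2.91, 2.71, 2.69 and 2.46 in YAPS127A cells and of 2.52, 2.82, 2.71 and 3.19 in empty vector cells. No array of either group exceeded the highest TrpnX value, the groups overlapped, and the log2 difference was -0.13 (SE 0.13). A transcript at this level could not be told from background by its single probe set, so neither its presence nor a change in it was measurable here. IL33, another epithelial alarm cytokine, was likewise at or below the highest TrpnX value on all 9 arrays, with means of 2.57 in YAPS127A cells and 2.87 in empty vector cells.

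**Figure D2:**
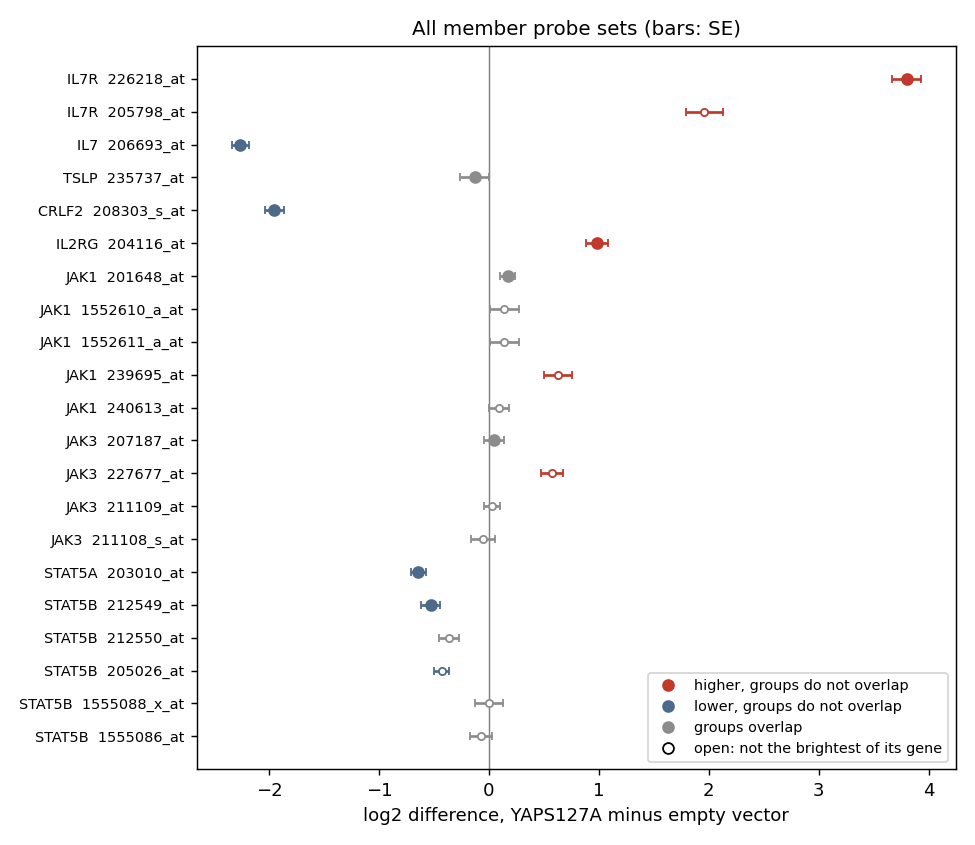
Log2 difference of each of the 21 member probe sets, YAPS127A minus empty vector, with its SE; filled points are the brightest probe set of a gene. The 2 IL7R probe sets stand at +3.80 and +1.96, IL7 and CRLF2 at -2.26 and -1.95, and 11 probe sets overlap between the groups.

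JAK1, the kinase of the IL7R chain, had the brightest probe set among its own 5 at log2 signals of 11.77, 11.62, 11.69, 11.79 and 11.86 in YAPS127A cells and of 11.59, 11.66, 11.67 and 11.42 in empty vector cells. The groups overlapped and the log2 difference was +0.17 (SE 0.07). All 5 JAK1 probe sets had a positive difference, but only 239695_at did not overlap, with signals of 6.14 to 6.71 in YAPS127A cells and 5.59 to 6.01 in empty vector cells (log2 difference +0.63, SE 0.13). The other 3 probe sets differed by +0.09 to +0.14.

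JAK3, the kinase of the common gamma chain, had log2 signals of 5.33, 5.29, 5.60, 5.41 and 5.25 in YAPS127A cells and of 5.29, 5.43, 5.16 and 5.45 in empty vector cells at its brightest probe set. These overlapped, with a log2 difference of +0.05 (SE 0.09). Another JAK3 probe set, 227677_at, did not overlap, at 4.75 to 5.26 in YAPS127A cells and 4.34 to 4.55 in empty vector cells (log2 difference +0.57, SE 0.10). The remaining 2 lay below or close to the highest TrpnX value. For JAK1 and JAK3 the reading thus depends on the probe set.

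STAT5A and STAT5B, closely related transcription factors whose genes neighbour each other on chromosome 17, were both lower in YAPS127A cells. STAT5A had log2 signals of 8.01, 8.03, 7.87, 7.97 and 7.86 in YAPS127A cells, against 8.49, 8.58, 8.71 and 8.55 in empty vector cells. The groups did not overlap (log2 difference -0.64, SE 0.07). STAT5B had log2 signals of 9.02, 9.20, 9.0, 8.91 and 8.88 in YAPS127A cells, against 9.74, 9.53, 9.38 and 9.45 in empty vector cells, and these did not overlap either (log2 difference -0.53, SE 0.09).

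Of the other 4 STAT5B probe sets, 205026_at was lower without overlap (-0.43, SE 0.07) and 212550_at was lower with a slight overlap, at 7.27 to 7.54 in YAPS127A cells and 7.53 to 7.88 in empty vector cells (-0.36, SE 0.09). The 2 dimmest, 1555088_x_at and 1555086_at, had group means of 4.62 and 3.96 in YAPS127A cells and of 4.62 and 4.03 in empty vector cells. The mean of all 5 STAT5B probe sets differed by -0.28. Because the 2 genes are so alike, a probe set of one may read some transcript of the other.

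To see whether a difference was shared along the chromosome, each member was set beside up to 50 neighbouring genes. The median difference of the neighbours was +0.03 for IL7R on chromosome 5, -0.01 for CRLF2 and -0.07 for IL2RG on chromosome X. With that median taken off on each array, these genes differed by +3.77 (SE 0.12), -1.94 (SE 0.08) and +1.05 (SE 0.10). Their differences are as large without the shift of their neighbours as with it.

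For IL7, STAT5A, STAT5B and JAK1 the values moved more. The neighbours of IL7 on chromosome 8 lay lower by a median of -0.34, and IL7 then differed by -1.92 (SE 0.09). The neighbours of STAT5A and STAT5B lay at -0.12, which left -0.51 (SE 0.07) and -0.40 (SE 0.09). The neighbours of JAK1 on chromosome 1 lay higher by +0.50, more than JAK1 itself, so that JAK1 was at -0.34 (SE 0.08) once their median was removed. The sign of JAK1 thus depends on whether it is read against all genes or against its neighbours.

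**Figure D3:**
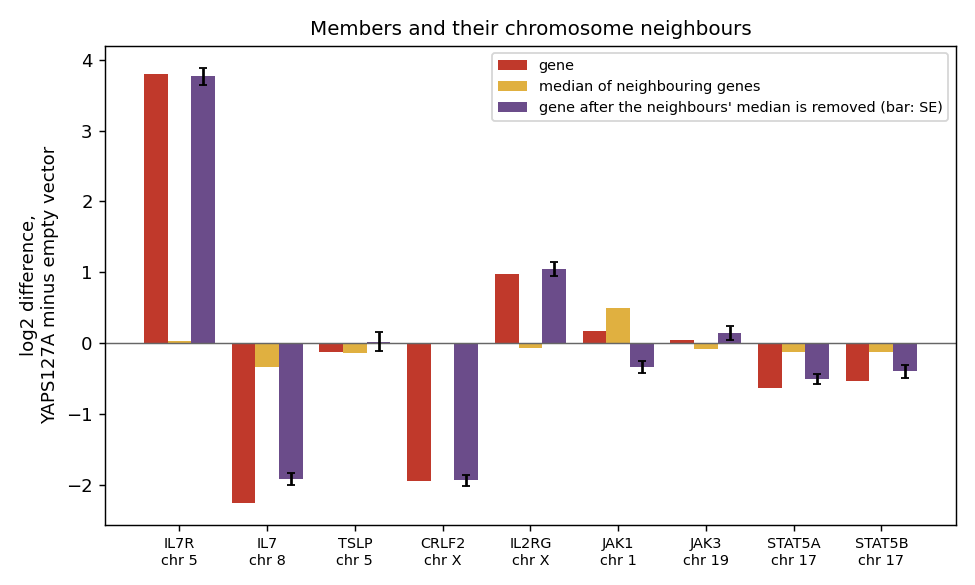
Log2 difference, YAPS127A minus empty vector, of each member's brightest probe set, of the median of its neighbouring genes, and of the member after that median is removed on each array (with SE). IL7R stays at +3.77, while JAK1 is at +0.17 before the removal and at -0.34 after it.

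The 5 genes whose centred signals over the 9 arrays lay nearest to those of IL7R were VIM, SFTA1P, STXBP6, MFAP5 and FAM133A, at Euclidean distances of 0.70 to 0.91 on the log2 scale among 19775 genes. VIM encodes the intermediate filament protein vimentin and MFAP5 a protein of extracellular microfibrils. Their log2 differences were +4.13 for VIM, +4.15 for SFTA1P, +3.73 for STXBP6, +3.36 for MFAP5 and +3.59 for FAM133A. For TSLP the nearest were MAGEA11, LOC101930149, LOC101927060, C1QTNF1 and LINC02436, at distances of 0.22 to 0.31, all with differences of -0.19 to -0.04, a match between genes that hardly vary. With 2 groups, likeness over the arrays mostly restates a similar group difference.

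The cells were checked against marker genes, since IL7R, IL2RG and JAK3 are best known from leukocytes. The 8 bile duct epithelial markers averaged log2 signals of 12.96 to 13.04 in YAPS127A cells and 12.94 to 13 in empty vector cells. KRT8 (+0.30) and CDH1 (+0.24) were higher and SOX9 (-0.25) lower by limma (adjusted p = 0.00741, 0.00882 and 0.0182). CDH1 and SOX9 were each called at 1 of their 2 probe sets, whose means were at +0.39 and -0.28. The neighbours of CDH1 had a median of +0.39, and removing it left CDH1 at -0.15 (adjusted p = 0.11 in limma). SOX9 was at -0.13 with its neighbours' median removed (adjusted p = 0.19 in limma), while KRT8 was at +0.33. The leukocyte marker PTPRC (CD45), CD3E and CD2 of T cells, MS4A1 of B cells and CD1C and FCER1A of dendritic cells were at or below the highest TrpnX value on all 9 arrays. Most other leukocyte markers gave a signal above it: on every array, 5 of 9 T and NK cell markers, 4 of 5 B cell markers, 7 of 9 myeloid and dendritic markers and 3 of 4 general leukocyte markers did so. Among them were CD3D, NKG7, CD79A and ITGAM, genes of T cells, NK cells, B cells and myeloid cells. Of all tested probe sets, only 26.7% had a mean at or below the highest TrpnX value. A signal above that value is thus common on these arrays and does not by itself show a leukocyte transcript. The marker counts use single arrays and brightest probe sets, so they were not tested against that share. The mean of 9 T and NK cell markers was 4.64 to 4.73 in YAPS127A cells and 4.60 to 4.74 in empty vector cells. By limma with Benjamini-Hochberg adjustment 0 of these 9 passed, and 1 had an unadjusted p under 0.05. The 5 B cell markers averaged 5.60 to 5.79 in YAPS127A cells and 5.37 to 5.40 in empty vector cells, with CD22 higher (+1.46). The 9 myeloid and dendritic markers averaged 4.93 to 5.08 in YAPS127A cells and 5.23 to 5.33 in empty vector cells, with CD14 (-0.45) and LYZ (-2.25) lower. LYZ fell at 1 of its 2 probe sets, whose mean was at -1.19. The 4 general leukocyte markers averaged 5.30 to 5.47 in YAPS127A cells and 5.67 to 5.84 in empty vector cells, with CORO1A higher (+0.46) and LCP1 lower (-2.12). PTPRC differed by -0.02 at its brightest probe set but rose at 1 of its 5. The mean of the 5 was at +0.09 and did not pass (adjusted p = 0.232 in limma). With the neighbours' median removed, CORO1A was at +0.11 and did not pass (adjusted p = 0.315 in limma), while LCP1 was at -2.45. The part of these genes in the members' differences was not tested. Fibroblast markers averaged 5.59 to 5.71 in YAPS127A cells and 5.43 to 5.62 in empty vector cells, with LUM higher (+1.45) and COL1A1 lower (-0.70) by limma (adjusted p = 7.89e-05 and 3.02e-05). Averaged over a gene's probe sets, LUM was at +0.94 and COL1A1 at -0.40. Endothelial markers averaged 4.69 to 5.02 in YAPS127A cells and 4.62 to 4.87 in empty vector cells, and 0 of 5 passed by brightest probe set. PECAM1 was at -0.01 there but fell at 3 of its 5 probe sets, and the mean of the 5 was at -0.50 (adjusted p = 0.000653 in limma).

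Beyond the members, 7 lists of pathway genes held 89 different genes with a named probe set, out of 100 listed. These were tested in the limma fit over all 54613 probe sets, each by its brightest probe set, at an adjusted p under 0.05. With YAPS127A, 8 of the 89 rose (8.99%) and 22 fell (24.7%), where 14.5% of all genes rose and 14.2% fell. The median log2 difference of the 89 was -0.08, where that of all genes was 0.00. The lists were chosen with earlier results of these arrays known, so no direction of the pathway is read from these shares or medians.

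The other cytokines and receptor chains of the common gamma chain family held 10 measured genes, of which 2 rose and 8 did not pass, with a median difference of 0.00. Both that rose belong to interleukin 15, a cytokine of NK and memory T cells. IL15 averaged 8.0 in YAPS127A cells and 7.59 in empty vector cells, a log2 difference of +0.41 (SE 0.11, adjusted p = 0.0139 in limma). Its receptor chain IL15RA averaged 7.83 in YAPS127A cells and 7.22 in empty vector cells, a difference of +0.61 (SE 0.08, adjusted p = 0.000153 in limma). The neighbours of IL15RA had a median of +0.63, and removing it left IL15RA at -0.02 (adjusted p = 0.815 in limma). IL2RA, a gene close to IL15RA on chromosome 10, encodes the alpha chain of the interleukin 2 receptor. It averaged 4.97 in both groups, below the median of all values that a neighbour had to exceed. IL2RA differed by +0.01 (adjusted p = 0.959 in limma), and by -0.63 once the same shift was taken off (adjusted p = 6.84e-06 in limma). That -0.63 is almost wholly the subtracted median of +0.63. A probe set this dim may not follow such a shift, so no lowering of IL2RA is read from it.

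Of 5 other JAK kinases and STAT factors, 1 rose, and the median difference was -0.03. STAT4, which carries interleukin 12 signals in lymphocytes, averaged 7.32 in YAPS127A cells and 5.88 in empty vector cells (+1.44, SE 0.13, adjusted p = 1.03e-05 in limma). JAK2, the second kinase used by the TSLP receptor in human cells, differed by -0.02 (adjusted p = 0.935 in limma). STAT3, the next gene beside STAT5A, differed by -0.12 (adjusted p = 0.211 in limma).

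Of 17 inhibitors of JAK/STAT signalling, 5 fell, 1 rose and 11 did not pass, with a median of -0.05. SOCS7 fell by 0.64 on the log2 scale (SE 0.09, adjusted p = 0.000265 in limma), PIAS4, a SUMO ligase that restrains STAT factors, fell by 0.38, and SOCS4 fell by 0.30. PIAS4 fell at 1 of its 2 probe sets, whose mean was at -0.27. SOCS4 was at -0.13 with the neighbours' median removed and did not pass there. SOCS6 rose by 0.48 (SE 0.06), at 1 of its 3 probe sets, whose mean was at +0.31. The classical feedback inhibitors SOCS1, SOCS2 and SOCS3 differed by -0.05, +0.04 and +0.05 and did not pass. The neighbours of SOCS1 had a median of +0.29, and removing it left SOCS1 at -0.34 (adjusted p = 0.00495 in limma). SOCS2 (+0.06) and SOCS3 (+0.13) did not pass there either.

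Of 16 genes known as STAT5 targets, 4 fell, 1 rose and 11 did not pass, with a median of -0.07. ID1, an inhibitor of helix-loop-helix factors that is also a BMP target, fell by 1.07 on the log2 scale (SE 0.06, adjusted p = 3.55e-07 in limma). The kinase gene PIM2 fell by 0.46, the survival gene MCL1 by 0.36 and CISH, a feedback inhibitor that STAT5 induces, by 0.28 (adjusted p = 0.0238 in limma). CISH fell at 1 of its 3 probe sets, where the groups overlapped, and the mean of the 3 was at -0.24 (adjusted p = 0.0405 in limma). The call of CISH was lost without YAPS127A replicate 4 (-0.28) or empty vector replicate 1 (-0.25), 2 (-0.27) or 4 (-0.28). The survival gene BCL2L1 rose by 0.39 at 1 of its 4 probe sets, whose mean was at +0.23, and BCL2 differed by +0.01. The neighbours of MCL1 had a median of -0.30, and removing it left MCL1 at -0.06 (adjusted p = 0.412 in limma).

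Of 12 genes of the PI3K, AKT and adaptor arm, 4 fell, 1 rose and 7 did not pass, with a median of -0.17. AKT2 fell by 1.21 on the log2 scale (SE 0.07, adjusted p = 4.4e-07 in limma), with means of 8.73 in YAPS127A cells and 9.95 in empty vector cells at its brightest probe set. Only 3 of its 7 probe sets fell, and their mean was at -0.35. MTOR fell by 0.53, LCK, a kinase of the SRC family, by 0.44 and the PI3K subunit gene PIK3CD by 0.29. MTOR did so at 1 of its 2 probe sets, whose mean was at -0.36. FYN, another SRC family kinase, rose by 0.50 while its neighbours lay at -0.44, and was at +0.95 with their median removed. It rose at 3 of its 5 probe sets, and the mean of the 5 was at +0.24. PIK3CD fell at 1 of its 2 probe sets, whose mean was at -0.19, and was at -0.17 with the neighbours' median removed (adjusted p = 0.0643 in limma).

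Of 17 other epithelial alarm cytokines and inducers of TSLP, 8 fell (47.1%) and 9 did not pass, with a median of -0.30. The flagellin receptor gene TLR5 averaged 5.61 in YAPS127A cells and 7.17 in empty vector cells (-1.56, SE 0.11, adjusted p = 9.24e-07 in limma). The cytokine gene IL1B fell by 1.48 on the log2 scale (SE 0.10), the receptor gene IL1R1 by 1.02 (SE 0.06) and TNF by 0.52 (SE 0.07). IL1R1 fell at 1 of its 2 probe sets, and their mean was at -0.63. The adaptor MYD88 and the NF-kB subunit RELA differed by +0.09 and +0.10 and did not pass. The list was chosen with earlier results of these arrays known, so its count is not independent evidence of a direction.

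Of 14 transcription factors known to act on the IL7R gene, 2 rose, 2 fell and 10 did not pass, with a median of -0.08. GATA3 rose by 0.66 (SE 0.09, adjusted p = 0.000198 in limma) at all 3 of its probe sets. Its neighbours on chromosome 10 had a median of +0.59, and removing it left GATA3 at +0.06 (adjusted p = 0.567 in limma). ELF1 rose by 0.20, a call lost without YAPS127A replicate 5 (+0.19) or empty vector replicate 1 (+0.18) or 4 (+0.20), and was at -0.16 with the neighbours' median removed. GABPA and FOXP1 each fell by 0.25, GABPA at 1 of its 2 probe sets and FOXP1 at 2 of its 8. The means over their probe sets were at -0.22 for GABPA and -0.18 for FOXP1. GABPA was at -0.15 with its neighbours' median removed (adjusted p = 0.0667 in limma). It was at -0.21 without the YAPS127A and the empty vector array with the largest gap between 3' and 5' actin probe sets (adjusted p = 0.0702 in limma). The glucocorticoid receptor gene NR3C1 (-0.15), ETS1 (+0.01) and FOXO1 (-0.19) did not pass at their brightest probe sets. The neighbours of FOXO1 had a median of +0.37, and removing it left FOXO1 at -0.56 (adjusted p = 0.000189 in limma). Most of that -0.56 is thus the subtracted median. With their neighbours' median removed, NR3C1 (-0.03) and ETS1 (-0.05) did not pass. ETS1 rose at 1 of its 3 probe sets, whose mean was at +0.19 (adjusted p = 0.041 in limma). NR3C1 fell at 1 of its 5 probe sets, whose mean was at -0.13 and did not pass.

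**Figure D4:**
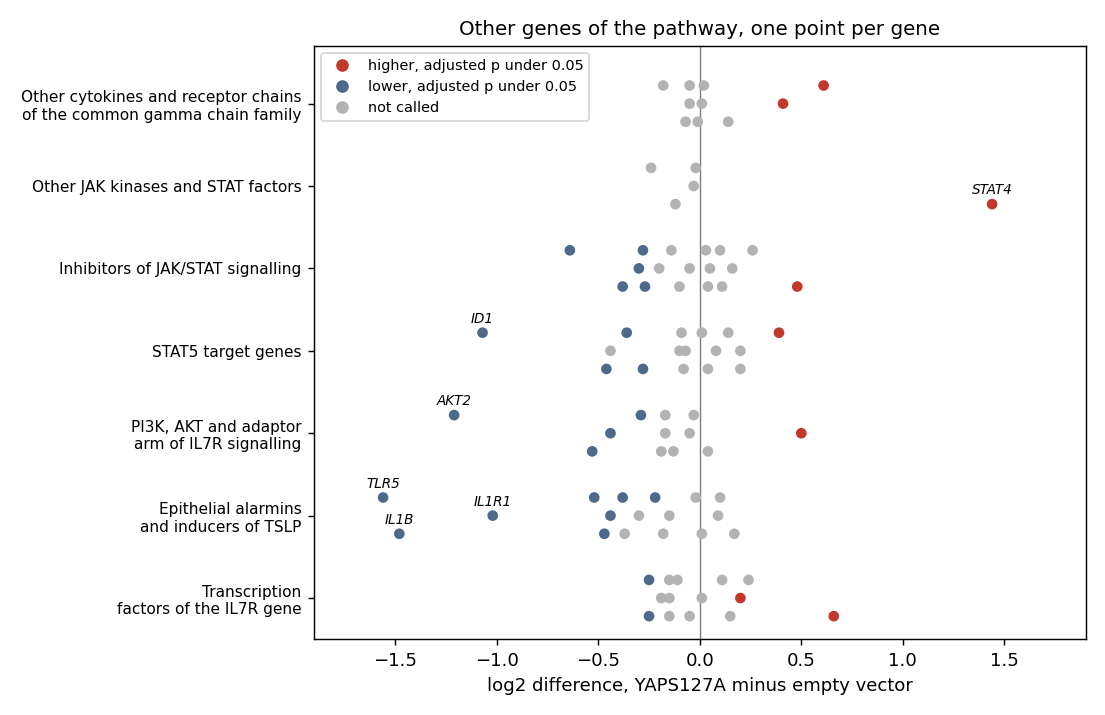
Log2 difference of each measured gene in the 7 pathway lists, YAPS127A minus empty vector, coloured by its call in limma (a gene in 2 lists appears in both). STAT4 stands alone at +1.44, ID1, AKT2, IL1R1, IL1B and TLR5 lie between -1.02 and -1.56, and most genes lie near 0.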

How the data were processed

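HuCCT1 RNA, from 5 samples with YAPS127A and 4 with empty vector, was amplified, biotin-labelled and read on single-colour arrays, per the labels' protocols. The deposited values are log2 signals of 54675 probe sets, judged from their range of 1.62 to 14.96. How the authors corrected, normalized and summarised them is not stated in the sources used here. Array medians lay between 5.95 and 5.98, and no scaling was added. There were 0 columns of other samples.

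Without the 62 control probe sets, 54613 were fitted in limma 3.58.1 (R 4.3.3; lmFit, eBayes, no covariate), with Benjamini-Hochberg adjustment over all and a threshold of 0.05. A platform annotation named 1 gene for 41091, several genes for 1801 probe sets and no gene for 11721. Updated symbols came by gene ID through RefSeq (GRCh38.p14), which matched 41037. A gene is represented by its probe set with the highest mean. Neighbours are up to 25 genes on each side with a mean above 5.96, the median of all values. The scripts were tested on simulated data. Figures used matplotlib 3.10.9 in Python 3.11.15.

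Members and lists were chosen with earlier results of these data known. Named were every member, up to 4 called genes per list by p-value (all where at most 5 were called), and the 5 genes nearest to IL7R and to TSLP in centred signal over the arrays. Other list genes named beside them (IL2RA, JAK2, STAT3, SOCS1, SOCS2, SOCS3, BCL2, MYD88, RELA, IL33, NR3C1, ETS1 and FOXO1) and the called cell type markers were chosen after their values were seen.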

Additional observations from a re-analysis of the deposited data

Results flagged for a closer look

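In 92 sets of arrays, each 1 probe set in 1 group, 5 arrays lay far from the others of their group, about as many as the 1 in 20 that chance gives. The STAT4 signal was lowest in YAPS127A replicate 3, at 6.85 against 7.40 to 7.48 in the other arrays of that group. It was also lowest in empty vector replicate 3, at 5.62 against 5.94 to 5.98. JAK3 probe set 211109_at was highest in YAPS127A replicate 5, at 4.41 against 4.17 to 4.24, all near the control probe sets. ID1 was highest in YAPS127A replicate 5, at 7.84 against 7.65 to 7.69. TLR5 was lowest in YAPS127A replicate 2, at 5.25 against 5.64 to 5.78. The calls of STAT4, ID1 and TLR5 held without each array in turn.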

How the results depend on the processing

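The number of probe sets called was 13052, and 11099 to 12497 without each array in turn. Of the pathway genes, 7 to 8 rose and 19 to 24 fell without each array. IL7R differed by 3.71 to 3.91 and TSLP by -0.22 to 0.00 without each array, and IL7R by 2.88 when its probe sets were averaged. The counts moved by less than 1.5 times under quantile normalization, centring, a filter on dim probe sets, trend and robust eBayes, array weights, an actin 3' to 5' covariate, the mean of a gene's probe sets and removal of the neighbours' median. The same held without the 2 arrays with the largest actin gap (1.58 in a YAPS127A array and 1.69 in an empty vector array, against 0.89 to 1.18 in the others), an alternative chosen after seeing the data, with 11632 probe sets called and IL7R at 3.83. Of the called pathway genes, IL15RA (-0.02) and ELF1 (-0.16) changed sign with the neighbours' median removed. Their neighbours lay higher by 0.63 and 0.36. The dim filter left no value for TSLP, IL2RG and JAK3. With the replicate number as a block, 10306 probe sets were called, 7 pathway genes rose and 17 fell, and IL7R differed by 3.85. The same-numbered samples showed deviations with correlations of -0.250 to 0.0382, so the numbers do not pair them. SOCS4, FOXP1, GABPA and ELF1 did not pass with the block, and GABPA did not pass without both arrays of the largest actin gap. A planned pseudocount was not run, since the deposited values are already logarithms. The number of arrays limits the precision, and for TSLP, IL7, CRLF2 and IL2RG the background limits the size of a measurable difference.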
